A study of Mus musculus with 6 samples.

Results

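The hippocampal interneuron subtype markers were examined as 10 single genes, *Pvalb*, *Sst*, *Vip*, *Cck*, *Npy*, *Calb2*, *Reln*, *Lhx6*, *Htr3a* and *Lamp5*. They were taken by symbol from the 25239 gene symbols listed in the counts with no threshold on a measured value. RNA of the whole hippocampus was sequenced from 3 WT (Ube3am+/p+) and 3 Ube3am-/p+ mice, with 1 library per mouse. All 6 mice were C57BL/6 males, with an age of 6 to 8 weeks from the methods of the study, and the labels name no treatment. The Ube3am-/p+ mice, a model of Angelman syndrome, lack the maternal *Ube3a* copy and keep the paternal copy, which most neurons silence. The RNA was of bulk tissue, so fewer cells of a type and less RNA per cell cannot be told apart.

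Interneurons release GABA and keep the firing of the principal cells of the hippocampus in check and in rhythm. Those that arise in the medial ganglionic eminence (MGE) of the embryo use the transcription factor LHX6 and become mainly parvalbumin or somatostatin cells. Those that arise in the caudal ganglionic eminence (CGE) commonly carry the serotonin receptor channel encoded by *Htr3a* and include the VIP, CCK and many reelin cells, while *Lamp5* marks neurogliaform and related cells. Several of these markers are not limited to interneurons. Pyramidal cells also make CCK, hilar mossy cells of the mouse make calretinin, and Cajal-Retzius cells make reelin.

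Each library held 7293272 to 11314409 counts on genes, and the 10 markers had 45 to 3254 counts per library. *Ube3a*, the targeted gene, had 104, 141 and 151 CPM (counts scaled to the total count on genes of the library) in WT mice 1, 2 and 3 and 96.8, 82.9 and 80.6 CPM in Ube3am-/p+ mice 1, 2 and 3. Its log2 fold change was -0.58 with a standard error of 0.12 (adjusted p = 0.0363, edgeR), and every Ube3am-/p+ mouse was below every WT mouse. Corrected for GC content it was -0.20 (adjusted p = 0.239, edgeR). Exons of *Snhg14* overlap *Ube3a* over 1803 bp on the opposite strand, and without a known strand setting their reads cannot be told apart. All 11 genes of a list for CA pyramidal cells and all 9 of a list for dentate granule cells passed the filter on low counts. Choroid plexus markers, summed over 7 genes, ranged from 101 to 2180.1 CPM among WT mice and from 108 to 2270.4 CPM among Ube3am-/p+ mice. The libraries also differed in how expression followed the GC content of transcripts. Spearman's rho of GC content with a library's departure from the 6-library mean, taken over genes that are no independent replicates, was -0.506 and -0.571 in WT mice 2 and 3, 0.525 and 0.528 in Ube3am-/p+ mice 2 and 3, and 0.0455 and 0.0589 in the WT and Ube3am-/p+ mice numbered 1. In mice 2 and 3 this gradient separated the genotypes, so the log2 fold changes of the markers are also given after the libraries were corrected for GC content and transcript length (the GC and length correction).

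None of the 10 markers passed the test for a difference between genotypes in edgeR. All 10 passed the filter on low counts, and a call needed a Benjamini-Hochberg adjusted p below 0.05 over all 14445 genes tested and a fold change above 1.2 in edgeR's quasi-likelihood test. Over all tested genes 2.01% were called, 1.02% with higher and 0.990% with lower expression in Ube3am-/p+ mice. *Lamp5*, which was lower in Ube3am-/p+ mice, missed the threshold narrowly (adjusted p = 0.0503, edgeR). At an unadjusted p below 0.05 there were 2 markers, *Cck* with the higher and *Lamp5* with the lower mean in Ube3am-/p+ mice, against 24.6% of all tested genes. DESeq2 called the same 2 genes, where it called 8.74% of the genes for which it gave an adjusted p. After the GC and length correction *Lamp5* was called and *Cck* was not, against 0.648% of genes called. There was no overlap between the genotypes in CPM for 4 markers, *Npy* and *Lhx6* with higher and *Reln* and *Lamp5* with lower values in Ube3am-/p+ mice, against 25.0% of all tested genes. The median log2 fold change of the markers was 0.21, and 0.00 after the GC and length correction, beside 0.0025 and -0.0102 over all tested genes.

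**Figure D1:**
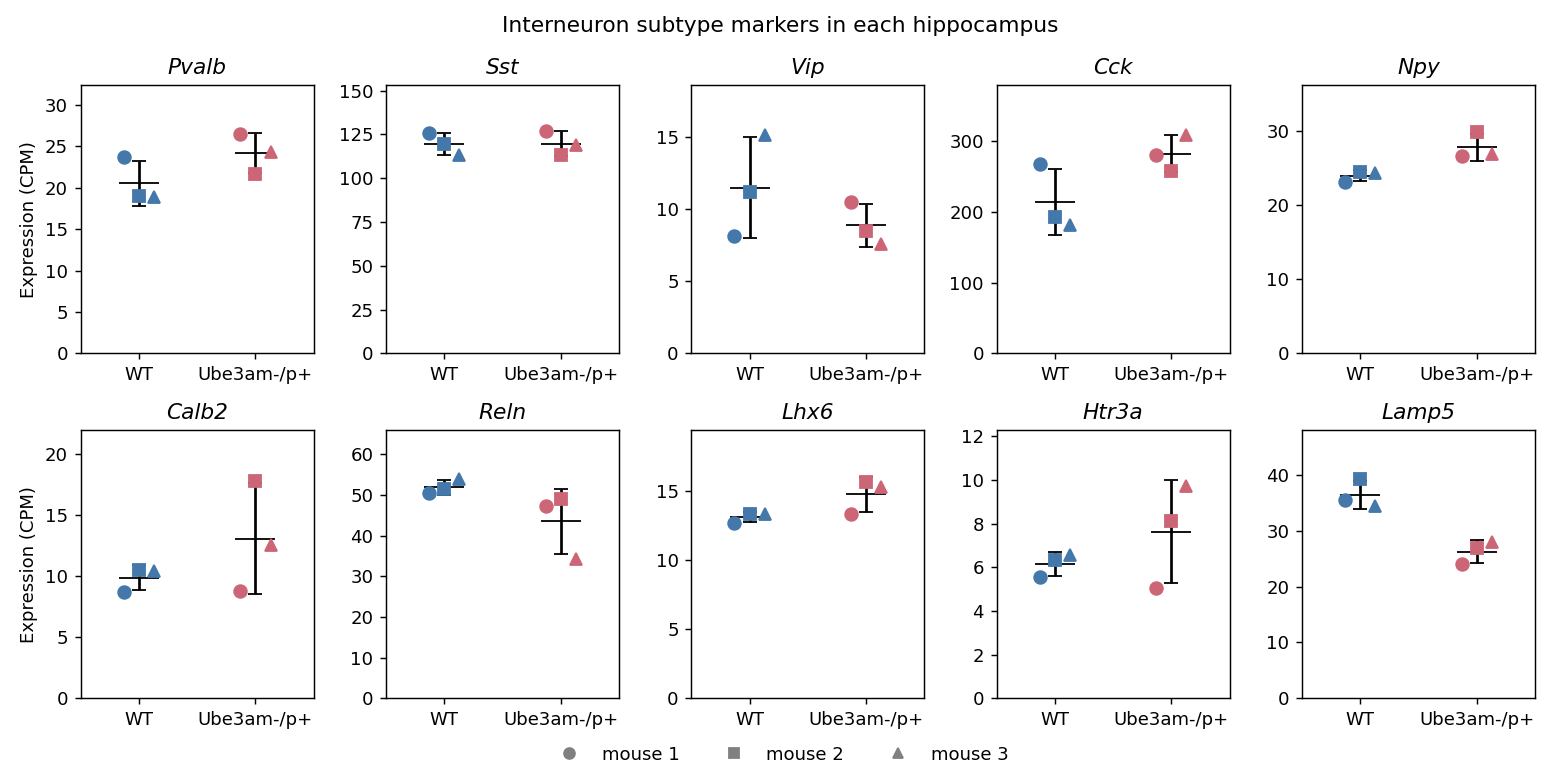
Expression of the 10 interneuron subtype markers in each mouse, in CPM on all gene counts, with circles, squares and triangles for mice 1, 2 and 3, a horizontal line for the mean and bars for the SD (n = 3 per genotype). *Lamp5* lay between 34.4 and 39.2 CPM in WT mice and between 24.0 and 27.9 CPM in Ube3am-/p+ mice, while *Sst* had nearly the same mean in both.

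*Lamp5* encodes a membrane protein of the LAMP family that is found in GABA neurons and lies on chromosome 2 from 136052239 to 136069917. It had 35.5, 39.2 and 34.4 CPM in WT mice 1, 2 and 3, and 24.0, 26.8 and 27.9 CPM in Ube3am-/p+ mice 1, 2 and 3. All 3 Ube3am-/p+ mice were below all WT mice, and the gap between the groups was wider than the spread within either. The WT mean was 36.4 ± 2.51 CPM (SD, n = 3) and the Ube3am-/p+ mean 26.2 ± 1.98 CPM (SD, n = 3). *Lamp5* had a log2 fold change of -0.45 with a standard error of 0.11, which is 0.731 times the WT level with a 95% confidence interval of 0.619 to 0.863. The two-sided exact permutation test of the 6 mice gave p = 0.1, the lowest value possible with groups of 3. Omission of single mice gave log2 fold changes from -0.50 to -0.39 and an adjusted p from 0.0159 to 0.273 (edgeR). *Lamp5* was called without WT mouse 1, where 2582 of the 14646 genes tested were called. It was also called without Ube3am-/p+ mouse 1, where 1816 of the 14536 genes tested were called. The GC and length correction gave -0.52 with a standard error of 0.11 (adjusted p = 0.0161, edgeR). The mice numbered 1, whose relation to GC content was alike, had 35.5 CPM and 24.0 CPM. Since *Lamp5* had the lowest p of the markers, its upstream sequence is shown, 100 bases that end just before the annotated start (RefSeq, chr2:136052139-136052238, GRCm38.p6, plus strand).

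Lamp5: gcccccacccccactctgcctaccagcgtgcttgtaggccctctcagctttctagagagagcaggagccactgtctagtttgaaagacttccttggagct

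Neocortical markers, which could enter a hippocampal dissection together with cortical *Lamp5*, were all 4 tested and summed to 72.1 to 76.2 CPM in WT mice and 65.5 to 73.3 CPM in Ube3am-/p+ mice. Of these, *Rorb* was called lower (log2 fold change -0.60, adjusted p = 0.0362, edgeR), but not after the GC and length correction (-0.35, adjusted p = 0.145, edgeR). The other 3 had positive log2 fold changes, of which those of *Rspo1* and *Fezf2* turned negative with the correction (-0.12 and -0.02). Their part in the *Lamp5* values was not tested.

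The calcium-binding proteins that define interneuron classes are parvalbumin, the marker of fast-spiking basket and axo-axonic cells, and calretinin. *Pvalb* (chromosome 15, 78191114 to 78206400) had 23.7, 19.0 and 18.9 CPM in WT mice 1, 2 and 3, and 26.5, 21.7 and 24.3 CPM in Ube3am-/p+ mice 1, 2 and 3. WT mouse 1 lay above Ube3am-/p+ mouse 2, so the groups overlapped. The log2 fold change of *Pvalb* was 0.25 with a standard error of 0.13 (adjusted p = 0.265, edgeR), a fold of 1.19 with a 95% confidence interval of 0.974 to 1.45, and it was 0.15 after the GC and length correction. *Calb2* (chromosome 8, 110137502 to 110168210), the gene of calretinin, had 8.72, 10.5 and 10.4 CPM in WT mice and 8.79, 17.8 and 12.5 CPM in Ube3am-/p+ mice. Ube3am-/p+ mouse 2 was far above the other 5 mice and Ube3am-/p+ mouse 1 was at the WT level. The log2 fold change of *Calb2* was 0.43 with a standard error of 0.22 (adjusted p = 0.238, edgeR), and 0.25 after the GC and length correction. It ranged from 0.14 to 0.64 with 1 mouse left out. *Calb2* was called without Ube3am-/p+ mouse 1 (adjusted p = 0.0338, edgeR), in which it was low. In that fit 1816 of the 14536 genes tested were called. The 5 hilar mossy cell markers were all tested, with none called, and summed to 124 to 134 CPM in WT mice and 118 to 128 CPM in Ube3am-/p+ mice. Most of this sum was *Ociad2*, with 103 to 117 CPM. *Calcrl* had 10.6, 6.46 and 9.32 CPM in WT mice and 6.43, 5.92 and 4.47 CPM in Ube3am-/p+ mice, without overlap. Its log2 fold change was -0.63 (adjusted p = 0.105, edgeR), and -0.32 after the GC and length correction (adjusted p = 0.54, edgeR). The other 4 genes had positive log2 fold changes before the correction. The part of mossy cells in the *Calb2* values was not tested.

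The 4 neuropeptide genes of the list did not share a direction. Somatostatin is made by interneurons that target dendrites, among them the oriens-lacunosum moleculare cells. *Sst* (chromosome 16, 23889573 to 23890958) had 126, 119.5 and 113 CPM in WT mice and 127, 113 and 119 CPM in Ube3am-/p+ mice. The means, 119.6 ± 6.39 CPM (SD, n = 3) and 119.8 ± 7.07 CPM (SD, n = 3), were nearly equal and the groups overlapped fully. This is a log2 fold change of 0.02 with a 95% confidence interval of -0.17 to 0.20 (adjusted p = 0.917, edgeR). After the GC and length correction it was -0.26 (adjusted p = 0.142, edgeR), so the sign of *Sst* depended on that correction.

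Neuropeptide Y is made by neurogliaform, ivy and many somatostatin cells. *Npy* (chromosome 6, 49822710 to 49829507) had 23.1, 24.4 and 24.3 CPM in WT mice and 26.6, 29.8 and 26.8 CPM in Ube3am-/p+ mice. All Ube3am-/p+ mice were above all WT mice (exact permutation test, two-sided p = 0.1). *Npy* had a log2 fold change of 0.23 with a standard error of 0.11 (adjusted p = 0.217, edgeR), and it was -0.02 after the GC and length correction (adjusted p = 0.96, edgeR).

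Cholecystokinin marks a class of basket cells that carry the cannabinoid receptor on their terminals. *Cck* (chromosome 9, 121489824 to 121495694) had 267, 193 and 182 CPM in WT mice and 280.4, 257 and 309 CPM in Ube3am-/p+ mice. WT mouse 1 lay among the Ube3am-/p+ mice, and WT mice 2 and 3 lay well below them. The WT mean was 214 ± 46.0 CPM (SD, n = 3) and the Ube3am-/p+ mean 282 ± 26.1 CPM (SD, n = 3), 1.33 times as high with a 95% confidence interval of 1.10 to 1.62 (adjusted p = 0.0851, edgeR). *Cck* had a log2 fold change of 0.42, which was 0.61 without WT mouse 1 (adjusted p = 0.00118, edgeR) and 0.13 after the GC and length correction (adjusted p = 0.637, edgeR). Without WT mouse 1, 2582 of the 14646 genes tested were called. Between the mice numbered 1 the log2 ratio of Ube3am-/p+ to WT was 0.07. The CA pyramidal list, which stands for other cells that make CCK, summed to 1139.7 to 1204 CPM in WT mice and 1141 to 1289 CPM in Ube3am-/p+ mice, with 1 of its 11 genes, *Pcp4*, called higher (log2 fold change 0.57, adjusted p = 0.0362, edgeR). In this list 6 genes had positive and 5 negative log2 fold changes, the lowest that of *Wfs1* with -0.34 (adjusted p = 0.0769, edgeR). The part of pyramidal cells in the *Cck* values was not tested.

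Vasoactive intestinal peptide is made by interneurons that mostly inhibit other interneurons. *Vip* (chromosome 10, 5639218 to 5647617) had 8.13, 11.2 and 15.1 CPM in WT mice and 10.5, 8.48 and 7.60 CPM in Ube3am-/p+ mice, on 69 to 110 counts per library. WT mouse 3 was the highest of the 6 and WT mouse 1 was within the range of the Ube3am-/p+ mice. *Vip* had a log2 fold change of -0.35 with a standard error of 0.21 (adjusted p = 0.319, edgeR), and -0.07 after the GC and length correction. Between the mice numbered 1 *Vip* was higher in the Ube3am-/p+ mouse, with a log2 ratio of 0.37.

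Transcription of neuropeptide genes is classically driven by cAMP and neuronal activity through the cAMP response element, which was first studied at the somatostatin gene. The letters TGACGTCA, a palindrome that reads the same on both strands, stood 48 bases before the RefSeq start of *Sst*, which lies downstream of the GENCODE start given above, so that the letters fall inside the gene's GENCODE bounds. They occur in 1.79% of the 32851 promoter windows of RefSeq (250 bases before to 50 after the start, GRCm38.p6). The shorter TGACG, searched on both strands and contained in the full element, was found in *Sst*, *Cck* and *Vip*, against 20.8% of all windows. The windows of *Cck* (start at -47, opposite strand) and *Vip* (start at -79) held the shorter letters alone, and that of *Npy* held neither. The sequences are shown so that the peptide genes can be compared, in the direction of transcription with the matching letters in capitals. They are 30 bases for *Sst* and the 100 bases before the start for the others.

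Sst (chr16:23890874-23890903, minus strand): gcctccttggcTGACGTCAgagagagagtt

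Cck (chr9:121495695-121495794, minus strand): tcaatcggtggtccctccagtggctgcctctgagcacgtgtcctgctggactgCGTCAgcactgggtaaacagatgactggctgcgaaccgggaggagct

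Vip (chr10:5639118-5639217, plus strand): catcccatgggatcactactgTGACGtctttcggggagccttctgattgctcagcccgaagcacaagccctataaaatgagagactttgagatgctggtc

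Npy (chr6:49822610-49822709, plus strand): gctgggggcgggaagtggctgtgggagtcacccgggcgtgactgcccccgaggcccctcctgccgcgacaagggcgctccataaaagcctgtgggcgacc

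Beside these letters stand log2 fold changes of 0.02 for *Sst*, 0.42 for *Cck*, -0.35 for *Vip* and 0.23 for *Npy* before the GC and length correction, and -0.26, 0.13, -0.07 and -0.02 after it. None of these genes was called by edgeR. Because the study is about retinoic acid signalling, AGGTCA, the core motif to which retinoic acid receptors bind, was searched as well. It was in none of the 12 windows of the 8 markers that have one and in 16.3% of all windows, which says only that these letters are not in these windows.

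*Reln* encodes reelin, a secreted glycoprotein that guides neuronal positioning in development and acts on synapses in the adult. The gene lies on chromosome 5 from 21884454 to 22344702. It had 50.4, 51.4 and 54.0 CPM in WT mice and 47.2, 49.1 and 34.4 CPM in Ube3am-/p+ mice. All Ube3am-/p+ mice were below all WT mice, but mice 1 and 2 only slightly so, and Ube3am-/p+ mouse 3 stood apart as the lowest of the 6. The log2 fold change was -0.24 with a standard error of 0.12 (adjusted p = 0.238, edgeR), and a value of -0.24 was also obtained after the GC and length correction (adjusted p = 0.212, edgeR). With 1 mouse left out it ranged from -0.32 to -0.10. Markers of Cajal-Retzius cells, one other source of reelin, were low. Of the 5 genes 3 were tested and none was called, their sum was 12.7 to 13.2 CPM in WT mice and 9.41 to 11.0 CPM in Ube3am-/p+ mice, lowest in Ube3am-/p+ mouse 3. Most of this sum was *Trp73*, with 7.77, 7.84 and 8.64 CPM in WT mice and 5.97, 6.28 and 4.85 CPM in Ube3am-/p+ mice, without overlap. Its log2 fold change was -0.48 (adjusted p = 0.143, edgeR), and -0.64 after the GC and length correction (adjusted p = 0.112, edgeR). The other tested genes, *Ebf3* and *Nhlh2*, had log2 fold changes of 0.09 and -0.09. *Lhx1* and *Lhx5* each had 0 counts in 2 of the 6 libraries. Entorhinal neurons also make reelin, and the 4 genes of a list for subiculum and entorhinal cortex, all tested and none called, summed to 173 to 189 CPM in WT mice. In Ube3am-/p+ mice 1, 2 and 3 their sum was 176, 189 and 133 CPM, so mouse 3, the lowest in *Reln*, was the lowest here too, mainly through *Tshz2* with 24.8 CPM against 48.1 to 66.4 CPM in the other mice. The part of either cell type in the *Reln* values was not tested. An exon of *Gm10475* overlaps *Reln* over 246 bp on the opposite strand, and whether strands were separated in the counting is not given in the sources used here.

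*Lhx6* (chromosome 2, 36081953 to 36105408), the transcription factor of MGE-derived cells, had 12.7, 13.3 and 13.3 CPM in WT mice and 13.3, 15.6 and 15.3 CPM in Ube3am-/p+ mice. The groups did not overlap, although Ube3am-/p+ mouse 1 exceeded WT mice 2 and 3 by less than the rounding of these values. For *Lhx6* the log2 fold change was 0.19 with a standard error of 0.14 (adjusted p = 0.421, edgeR), and 0.03 after the GC and length correction. *Htr3a* (chromosome 9, 48899213 to 48911099), the subunit of the serotonin-gated channel of CGE-derived cells, had the fewest counts of the list, 389 in the 6 libraries. It had 5.54, 6.34 and 6.58 CPM in WT mice and 5.07, 8.13 and 9.70 CPM in Ube3am-/p+ mice. Ube3am-/p+ mouse 1 was the lowest of the 6 and the other two were the highest. For *Htr3a* the log2 fold change was 0.34 with a standard error of 0.23 (adjusted p = 0.38, edgeR), and the 95% confidence interval of the fold ran from 0.897 to 1.79. After the GC and length correction the log2 fold change was 0.20 (adjusted p = 0.732, edgeR).

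**Figure D2:**
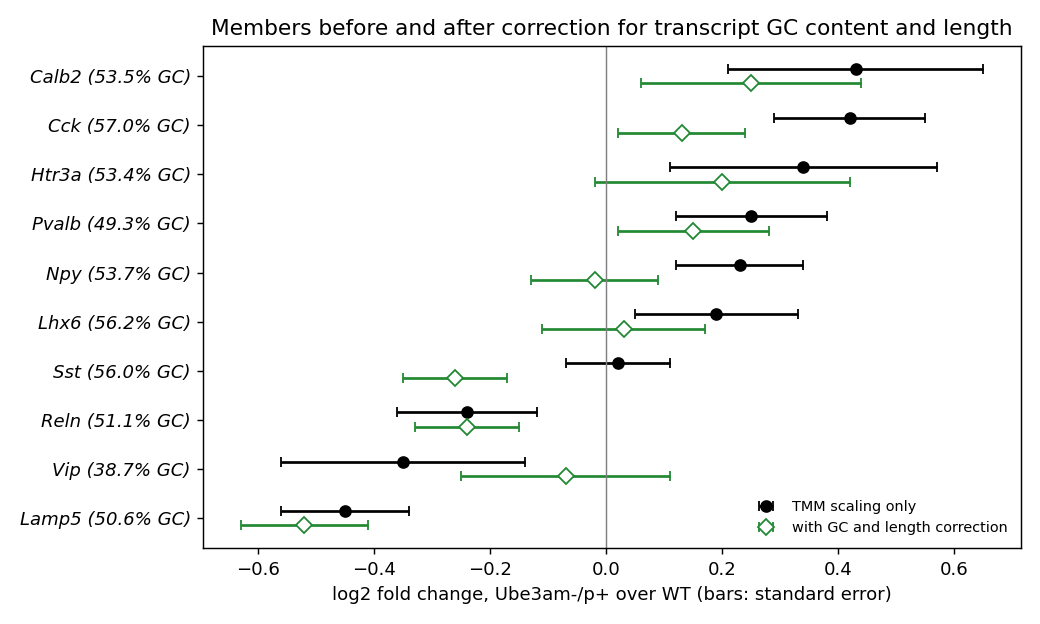
Log2 fold changes of Ube3am-/p+ over WT for the 10 markers, with filled circles for TMM scaling and open diamonds after the GC and length correction, and bars for the standard error. The GC content of the longest transcript stands beside each name. *Lamp5* moved from -0.45 to -0.52 and *Reln* stayed at -0.24, while *Sst* went from 0.02 to -0.26 and *Npy* from 0.23 to -0.02.

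The correction moved the markers by unequal amounts. *Cck* and *Sst*, with 57.0% and 56.0% GC in the longest transcript, both moved down by 0.28 in log2 fold change, while *Lhx6*, with 56.2% GC, shifted by -0.16, and *Vip*, with 38.7% GC, moved up by 0.28. *Lamp5* (50.6% GC), *Reln* (51.1% GC), *Pvalb* (49.3% GC), *Calb2* (53.5% GC) and *Htr3a* (53.4% GC) moved by less than their standard errors.

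Per kilobase of the longest coding transcript, the level in WT mice was highest for *Cck* with 268 ± 57.6 CPM per kb (SD, n = 3), followed by *Sst* with 166 ± 8.86. *Npy* came next with 42.3 ± 1.30, then *Pvalb* with 21.0 ± 2.78 and *Lamp5* with 18.6 ± 1.28 CPM per kb. *Vip* (7.49 ± 2.28), *Calb2* (6.90 ± 0.702), *Reln* (4.44 ± 0.159), *Lhx6* (3.76 ± 0.0925) and *Htr3a* (2.96 ± 0.263) followed. The ranges of WT mice overlapped between the neighbours *Pvalb* and *Lamp5* and between *Vip* and *Calb2*, and the other neighbours were separate. In Ube3am-/p+ mice the first 5 and the last kept their places, *Calb2* came before *Vip*, and *Lhx6* came before *Reln*. When all annotated exons were used as the length, *Sst* came before *Cck* in WT mice, with 166 against 164 CPM per kb, *Calb2* came before *Vip*, and the order of the last 3 was *Htr3a*, *Lhx6* and *Reln*.

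To see the markers beside the RNA of GABA neurons as a whole, each was divided by the geometric mean of *Gad1* and *Gad2*, the enzymes of GABA synthesis, and *Slc32a1*, the vesicular GABA transporter. These references did not move together. *Gad1* had 265, 273 and 285 CPM in WT mice and 237, 234 and 233 CPM in Ube3am-/p+ mice, or -0.21 in log2 fold change (adjusted p = 0.116, edgeR). *Gad2* had 139, 157 and 169 CPM and 132, 120.2 and 101 CPM, or -0.37 in log2 fold change (adjusted p = 0.0595, edgeR). *Slc32a1* had 62.8, 57.8 and 45.7 CPM and 56.4, 71.9 and 76.7 CPM, or 0.32 in log2 fold change (adjusted p = 0.155, edgeR). Both *Gad* genes were lower in every Ube3am-/p+ mouse than in any WT mouse, and *Slc32a1* overlapped. After the GC and length correction the values were -0.15, -0.20 and 0.04. Striatal tissue, whose main neurons also use GABA, was followed by 6 genes that summed to 63.4 to 80.7 CPM in WT mice and 87.5 to 105 CPM in Ube3am-/p+ mice, without overlap. Of the 5 tested, *Ppp1r1b*, a phosphatase inhibitor regulated by dopamine, was called higher (log2 fold change 0.47, adjusted p = 0.0486, edgeR), and it was not called after the GC and length correction (0.18, adjusted p = 0.392, edgeR). None of the 6 was at 0, and their part in the values of the GABA genes and markers was not tested.

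Relative to these 3 genes, 4 of the 10 markers did not overlap between the genotypes, against 27.9% of all tested genes set against the same reference. *Cck* was higher in Ube3am-/p+ mice by 0.52, *Npy* by 0.32 and *Lhx6* by 0.27 in log2 ratio, and *Lamp5* was lower by a difference of -0.37 (exact permutation test, two-sided p = 0.1 for each). *Reln*, which did not overlap in CPM, did so here, with a difference of -0.16. The count depended on the reference, for markers and for all genes. It was 6 markers with *Gad1* alone (39.5% of all tested genes) and 5 with *Gad2* alone (44.5%), where *Pvalb* and *Sst* were also without overlap. With *Slc32a1* alone it was 1 marker, *Lamp5* (13.1% of all tested genes), and its difference was -0.78. *Lamp5* had -0.25 with *Gad1* alone, also without overlap, and -0.08 with *Gad2* alone, with overlap. *Cck* was higher by 0.64 with *Gad1*, 0.81 with *Gad2* and 0.11 with *Slc32a1*. All these ratios were taken from CPM without the GC and length correction. The longest transcripts of *Gad1*, *Gad2* and *Slc32a1* have 47.3%, 44.1% and 61.9% GC. After the correction the log2 fold changes of *Cck*, *Npy*, *Lhx6* and *Lamp5* themselves were 0.13, -0.02, 0.03 and -0.52. How far the ratios follow GC content was not tested.

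**Figure D3:**
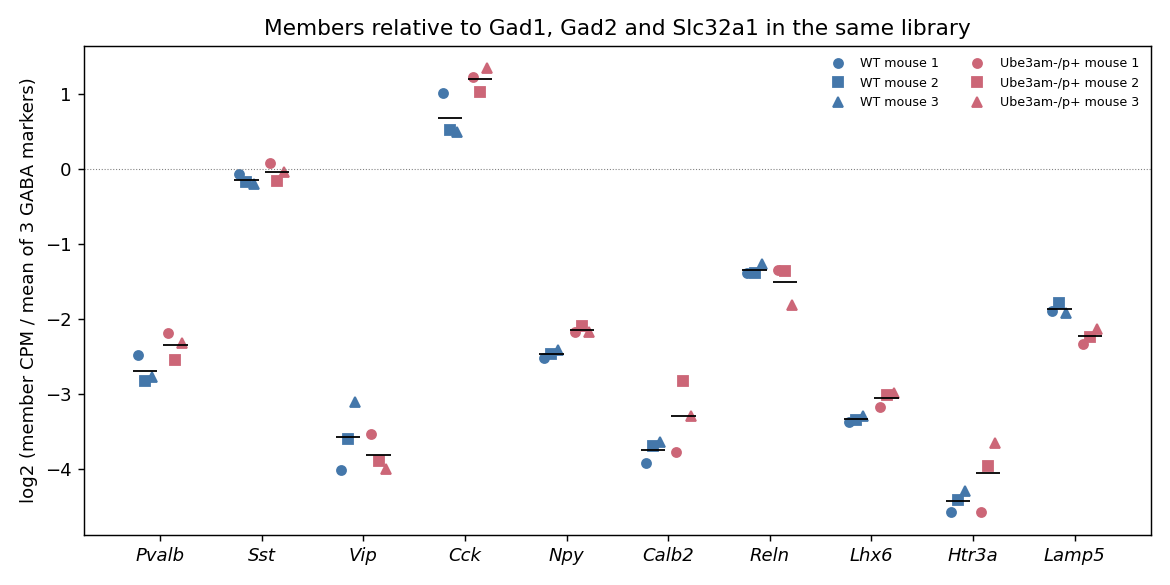
Log2 ratio of each marker to the geometric mean of *Gad1*, *Gad2* and *Slc32a1* in the same library, with blue for WT and red for Ube3am-/p+ mice, a symbol for each mouse number and a line for the mean of 3 mice. *Cck*, *Npy*, *Lhx6* and *Lamp5* are the genes in which the genotypes do not overlap. The ratios are without the GC and length correction.

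Other genes of the same cells and of the same signals were taken from 4 lists. The CGE list shares a gene with the list for dentate granule cells, so these lists are not limited to RNA of interneurons. The part of other cells in their values was not tested. The lists held 58 distinct genes, of which 51 passed the filter. None was called by edgeR, against 2.01% of all tested genes. DESeq2 called 7, where it called 8.74% of the genes for which it gave an adjusted p. At an unadjusted p below 0.05 with the same fold there were 13 of the 51, against 19.6% of all tested genes. Without regard to fold, 12.2% of all tested genes were higher and 12.4% lower at an unadjusted p below 0.05, the shares beside which the counts of each list stand. Of the 10 genes of all GABA neurons, 3 were higher and 2 lower at an unadjusted p below 0.05, with a median log2 fold change of 0.20. The highest log2 fold change was that of *Dlx6*, a homeobox gene of the interneuron lineage, which had 1.62 ± 0.332 CPM in WT and 2.65 ± 0.481 CPM in Ube3am-/p+ mice (SD, n = 3) and a log2 difference of 0.71 (adjusted p = 0.198, edgeR), and the lowest was that of *Gad2*. Of the 18 genes of MGE-derived cells 16 were tested, with 1 higher and 4 lower, *Erbb4* among them, at an unadjusted p below 0.05 and a median of -0.19. *Tac1*, the precursor of substance P, had 6.60, 8.18 and 6.31 CPM in WT mice and 2.93, 4.77 and 3.61 CPM in Ube3am-/p+ mice, or -0.87 in log2 fold change (adjusted p = 0.0592, edgeR). At the other end of this list, *Unc5b*, a netrin receptor, had 0.20 (adjusted p = 0.251, edgeR), and 0.03 after the GC and length correction. *Erbb4*, the neuregulin receptor of interneurons, which the study itself picked from these libraries, is in this list and does not count as independent. Its log2 fold change was -0.51 (adjusted p = 0.0838, edgeR), with overlap, and -0.24 after the GC and length correction (adjusted p = 0.286, edgeR). The study also reports lower *Erbb4* by real-time qPCR in hippocampus and lower ERBB4 by immunofluorescence in CA1.

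Of the 14 genes of CGE-derived cells 13 were tested, with 1 higher and 2 lower at an unadjusted p below 0.05 and a median of -0.06. *Id2*, a transcriptional inhibitor that is common in neurogliaform cells together with *Lamp5*, had 52.3, 63.4 and 62.7 CPM in WT mice and 45.7, 45.8 and 40.7 CPM in Ube3am-/p+ mice. The groups did not overlap, and the log2 fold change was -0.41 (adjusted p = 0.0503, edgeR), or -0.34 after the GC and length correction (adjusted p = 0.0689, edgeR). *Tac2*, the precursor of neurokinin B, had the largest positive value, 0.85 (adjusted p = 0.116, edgeR), on 12 to 43 counts per library. *Ndnf*, another marker of neurogliaform cells, had -0.06 (adjusted p = 0.884, edgeR).

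The receptors and signalling partners of the markers numbered 16, of which 12 were tested. At an unadjusted p below 0.05, 1 was higher and 2 were lower, and the median was -0.03. *Sstr3*, a somatostatin receptor of neuronal cilia, had 31.7, 24.4 and 22.6 CPM in WT mice and 32.7, 40.5 and 38.0 CPM in Ube3am-/p+ mice, without overlap, although the mice numbered 1 were close. Its log2 fold change was 0.51 (adjusted p = 0.0541, edgeR). *Npy1r*, a receptor of neuropeptide Y, had 32.9, 45.0 and 38.4 CPM and 33.8, 24.7 and 22.7 CPM, or -0.51 in log2 fold change (adjusted p = 0.0697, edgeR), with overlap because WT mouse 1 lay below Ube3am-/p+ mouse 1. *Npy2r*, the presynaptic receptor, had -0.40 (adjusted p = 0.0513, edgeR) and *Npy5r* -0.31 (adjusted p = 0.344, edgeR). After the GC and length correction *Sstr3* had 0.35, *Npy1r* -0.35, *Npy2r* -0.21 and *Npy5r* -0.12. *Htr3b*, whose product can join that of *Htr3a* in a channel, had 0 counts in all 6 libraries.

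**Figure D4:**
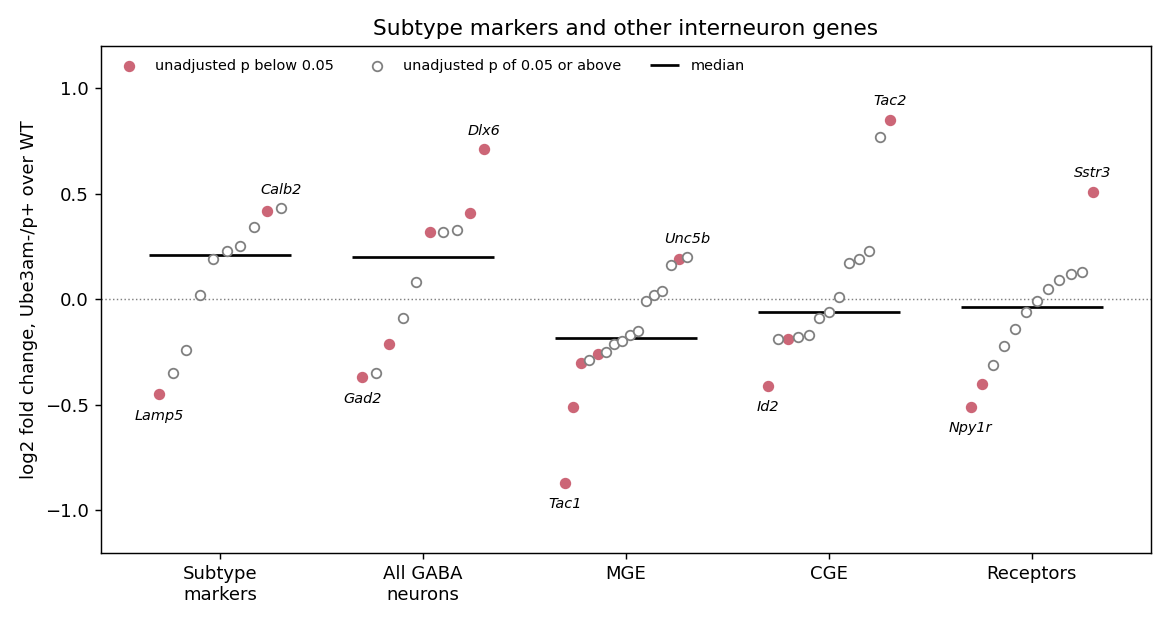
Log2 fold changes of Ube3am-/p+ over WT for the tested genes of the subtype markers, of all GABA neurons, of MGE-derived and CGE-derived interneurons and of the receptors, each gene a point and each list sorted by value. Filled points have an unadjusted p below 0.05, lines are list medians from -0.19 to 0.21, and the lowest and highest gene of each list is named.

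The marker profiles over the 6 libraries were compared with those of the 43 genes of the 4 lists with a mean of at least 5 CPM, by the root mean square difference of log2(CPM + 1) values centred on their means. These values are without the GC and length correction, and what a near profile stands for was not tested. *Lamp5* was nearest to *Kcnc2*, a potassium channel gene of fast-spiking cells, at 0.12, where the median over the 43 genes was 0.25. The second nearest gene was at 0.12 too. *Pvalb* was nearest to *Unc5b* (0.08), *Vip* to *Vldlr* (0.13) and *Reln* to *Sox6* (0.10). *Npy* and *Lhx6* were both nearest to *Cxcl14* (0.08 and 0.07), while their own root mean square departures from their means were only 0.12 and 0.11. *Calb2* and *Htr3a*, with the fewest counts per library beside *Vip*, had the largest of these distances, 0.20 to *Nr2f2* and 0.22 to *Slc32a1*.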

How the data were processed

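Hippocampal RNA of 3 WT and 3 Ube3am-/p+ mice was sequenced, with 1 library per mouse. The authors deposited raw, unpooled htseq-count counts for each gene symbol. The submitters' processing notes name STAR 2.7.4a, HTSeq and mm10, and the annotation and strand setting are not given in the sources used here. Reads on no gene made up 54.1% to 55.0% of the reads listed and were left out of library sizes.

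Levels are CPM on total gene counts. Genotypes were compared by edgeR 4.0.16 (R 4.3.3) with filterByExpr and TMM scaling, in a model that held genotype alone. Standard errors were taken from the fold change and the F statistic. Single genes were also compared by exact two-sided permutation of log2(CPM + 1). GC content and length are those of the longest GENCODE M21 transcript (GRCm38, 98.3% of tested genes) and entered as offsets from natural splines with 5 degrees of freedom per library. DESeq2 1.42.0 was an alternative. The fits were tested on simulated data. The members and lists were chosen with earlier results of these data known. Named were the markers, *Ube3a*, the 3 GABA references, for each list the largest rise and fall and any call, and each marker's nearest profile (for *Sst* and *Cck* it is not reported here). *Rorb*, *Pcp4*, *Wfs1*, *Ociad2*, *Calcrl*, *Tshz2*, *Trp73*, *Ebf3*, *Nhlh2*, *Lhx1*, *Lhx5*, *Rspo1*, *Fezf2*, *Ppp1r1b*, *Ndnf*, *Npy2r*, *Npy5r*, *Erbb4* and *Htr3b* were named after their values were seen.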

Additional observations from a re-analysis of the deposited data

How the results depend on the processing

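The number of markers called, 0 with edgeR, was 2 with DESeq2, 2 at an unadjusted p below 0.05 with the same fold, 0 to 2 with 1 mouse left out, and 1 (*Lamp5*) with library size only, with DESeq2 size factors in edgeR, without a filter, with at least 10 counts in every library and with the GC and length correction. Without both mice numbered 1, a setting chosen after seeing the data, 4138 of the 14631 genes tested were called. Among them were 4 of the 10 markers (*Vip*, *Cck*, *Calb2* and *Lamp5*) and 15 genes of the 4 companion lists. Over all tested genes the number, 290 of 14445, was 934 of the 10689 to which DESeq2 gave an adjusted p. It was 295 of 14445 with library size only, 399 of 14445 with DESeq2 size factors in edgeR and 392 of 13645 with at least 10 counts in every library. It was 1176 of 19291 without a filter, 92 of 14201 with the GC and length correction, 2832 of 14445 at an unadjusted p and 0 to 2582 with 1 mouse left out. The number was 0 without WT mouse 2, WT mouse 3 or Ube3am-/p+ mouse 2 and 2 without Ube3am-/p+ mouse 3. It was 2582 of 14646 without WT mouse 1 and 1816 of 14536 without Ube3am-/p+ mouse 1. For the companion lists it was 7 with DESeq2 and without a filter, 1 with library size only, 2 with DESeq2 size factors and with at least 10 counts in every library, 13 at an unadjusted p, and 0 to 10 with 1 mouse left out, 10 without WT mouse 1 and 7 without Ube3am-/p+ mouse 1. The log2 fold change of *Sst* turned to -0.26 with the GC and length correction, with and without the block, and to -0.02 without WT mouse 3 and without Ube3am-/p+ mouse 1, within a range of -0.02 to 0.07 with 1 mouse left out, and that of *Npy* turned to -0.02 with the correction, with and without the block. No other marker changed sign. Markers without overlap in CPM, 4, were 4 to 7 with 1 mouse left out, the 7 without WT mouse 1. Relative to GABA genes they were 6 with *Gad1* alone, 5 with *Gad2* alone, 1 with *Slc32a1* alone and 4 to 6 with 1 mouse left out. With fewer mice in a group, the genotypes are less likely to overlap for any gene. The share over all tested genes was not computed with 1 mouse left out, so these ranges show nothing particular to the markers. In the fit that blocked on replicate number, 0 genes were called over all (2422 at an unadjusted p below 0.05, edgeR), 0 of the markers and 0 of the lists, and with the block and the GC and length correction 13 genes, among them no marker. The deviations of same-numbered mice from their genotype means correlated by -0.285, -0.177 and -0.311. By this measure 0 of the 6 mice were closest to their own number, and the numbers were not taken as pairs. Without that centring, the mice numbered 1 were the closest of all pairs of libraries, with a chi-square of 3.91 per degree of freedom. The mice numbered 2 and those numbered 3 were far apart, with 16.5 and 22.2. Whether a number stands for shared handling was not tested. The cause of the differences between settings was not tested either. With 45 to 110 counts in most libraries, *Htr3a*, *Vip* and *Calb2* have the widest errors of the markers.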
